A study of Rattus norvegicus with 16 samples.

Results

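The genes described here are 34 rat genes of the endoplasmic reticulum stress response, in 4 role groups: 15 luminal chaperones and folding enzymes, 8 genes of degradation and translocation, 4 sensors and factors acting directly downstream of them, and 7 genes of the ATF4 arm. They were chosen by name, and each was taken through the TranscriptClusterID (the gene-level unit of the array) that the platform's probe annotation pairs with its symbol. Of the 34, 32 had a TranscriptClusterID, 1 each, among 36685 on the array, and Derl2 and Sesn2 matched none and were not analysed here.

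Total RNA of superficial kidney cortex was measured on Affymetrix RaGene 2.0 ST arrays in 16 male Sprague-Dawley rats of 7 weeks of age, with 1 array per rat and 4 rats per group. For 7 days, CNS rats received the normal-salt base diet with water, FNS rats that diet and 20% fructose in place of plain drinking water, CHS rats the high-salt base diet (4% NaCl) with water, and FHS rats the high-salt diet with 20% fructose. The 2 x 2 design gives the effect of fructose on each base diet, ΔF(NS) and ΔF(HS), and that of the high-salt base diet without and with fructose, ΔS(-F) and ΔS(+F). By the study's methods the base diets also differ in maker and in protein, carbohydrate and energy content, so every ΔS is a difference between diets in which NaCl and the other constituents cannot be told apart. Each sample was 1 slice of cortex with several nephron segments, vessels and interstitial cells, and the rats were housed in pairs, with no cage given in the labels. Fewer cells of a type and less RNA per cell cannot be told apart in such tissue.

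The array of rat 14 (FHS) stood apart. Its median over all TranscriptClusterIDs was 5.44 on the log2 scale, against 5.25 to 5.37 on the other 15 arrays, and its SD was the lowest, at 2.18. Rat 14 was the lowest of the 4 FHS rats in 22 of the 32 genes and in 13 of the 15 luminal genes, whereas it was lowest in 28.0% of all TranscriptClusterIDs. It was the highest FHS rat in 35.2% of all TranscriptClusterIDs. Because the array of rat 14 stood apart, several counts that rest on FHS are also given without this rat. Those of the further lists, of the cell type markers and of the genes whose FHS and CHS rats did not overlap are not. The 7 measured proximal tubule (S1/S2) markers were bright. Their summed linear values were 32947 to 35115 in CNS, 37574 to 39587 in FNS, 33880 to 40489 in CHS and 33322 to 42325 in FHS. The CNS and FNS sums did not overlap, and the part of these markers in the results was not tested. Gatm and Cubn, both in this list, are among the genes the study reports as changed by fructose on both diets. A higher sum therefore need not mean more proximal tubule.

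Secreted and membrane proteins fold in the lumen of the endoplasmic reticulum, where chaperones hold unfolded chains and disulfide isomerases join their cysteines. Unfolded protein is sensed by 3 membrane proteins. ATF6 is cut to a transcription factor, IRE1 (gene Ern1) splices the mRNA of XBP1, and PERK (gene Eif2ak3) slows translation while favouring that of ATF4. The first pair of branches is known for inducing chaperones and degradation factors, and the ATF4 arm for genes of amino acid supply, redox balance and cell death. Arrays of this kind measure transcript levels, not the splicing of Xbp1 or the cutting of ATF6.

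The sequence elements through which these branches are known to act were searched in the RefSeq promoters (GRCr8 build, 250 bases before to 50 after each gene's start), on both strands. Of the 32 genes, 26 had a promoter in the table. The elements were ERSE (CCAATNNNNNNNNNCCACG), ERSE-II (ATTGG and CCACG with any 1 base between), UPRE (TGACGTGG or TGACGTGA) and the ATF4 element CARE (TGATGNAA). ERSE was present for 7 of the 26 genes and in 0.0657% of all 33469 promoters, ERSE-II for 3 and in 0.0508%, UPRE for 2 and in 0.995%, and CARE for 3 and in 3.98%. The genes were chosen by name as genes of these branches, whose elements were already known, so these shares are no test of the set. The stretches are shown because they are the sites at which genes of different behaviour in the arrays carry the same letters. They read 5′ to 3′ on the gene's strand, with the fixed letters of each match in capitals. An element on the other strand appears as its reverse complement.
Hspa5, UPRE and ERSE, chr3:38452869-38453003, plus strand: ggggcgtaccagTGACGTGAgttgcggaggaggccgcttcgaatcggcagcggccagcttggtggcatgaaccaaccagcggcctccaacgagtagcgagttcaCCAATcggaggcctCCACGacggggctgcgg
Hyou1, UPRE and ERSE-II, then ERSE-II, chr8:53602679-53602816, plus strand: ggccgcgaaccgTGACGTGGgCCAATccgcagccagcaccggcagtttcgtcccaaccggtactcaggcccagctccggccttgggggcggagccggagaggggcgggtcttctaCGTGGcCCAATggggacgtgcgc
Herpud1, CARE, then ERSE-II, chr19:10614809-10614903, minus strand: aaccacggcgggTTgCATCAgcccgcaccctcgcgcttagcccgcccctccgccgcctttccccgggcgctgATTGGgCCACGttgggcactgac
Creld2, ERSE, chr7:121789227-121789269, plus strand: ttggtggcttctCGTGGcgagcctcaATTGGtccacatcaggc
Canx, ERSE, chr10:35158057-35158099, minus strand: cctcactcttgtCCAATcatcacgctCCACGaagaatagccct
Dnajc3, ERSE, chr15:102432522-102432564, plus strand: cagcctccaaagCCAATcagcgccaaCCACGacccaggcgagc
Xbp1, ERSE, chr14:84604546-84604588, plus strand: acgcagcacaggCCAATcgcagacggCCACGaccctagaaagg
Hsp90b1, ERSE, then ERSE, chr7:23012335-23012481, minus strand: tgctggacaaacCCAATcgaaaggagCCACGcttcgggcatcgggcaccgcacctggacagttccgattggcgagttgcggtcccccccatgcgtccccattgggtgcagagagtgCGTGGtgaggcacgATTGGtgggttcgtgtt
Calr, ERSE, chr19:40213123-40213165, plus strand: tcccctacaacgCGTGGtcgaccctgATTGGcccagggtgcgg
Dnajb11, ERSE-II, chr11:91672788-91672822, minus strand: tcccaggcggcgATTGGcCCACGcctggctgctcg
Chac1, CARE, chr3:126795952-126795983, plus strand: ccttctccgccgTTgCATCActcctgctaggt
Trib3, CARE, chr3:161275535-161275566, minus strand: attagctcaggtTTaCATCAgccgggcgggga
Of the 7 genes with an ERSE, Hspa5 and Creld2 were among those called higher on the high-salt diet below, Canx and Dnajc3 among those called lower, and Hsp90b1, Calr and Xbp1 were not called. In Hyou1, the UPRE and the first ERSE-II overlap, so these letters are not separate sites. Herpud1 had both an ERSE-II and a CARE. A match is only a run of letters and shows no binding.

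The first comparison was that of the base diets. On the high-salt diet, averaged over water and fructose, 9 of the 32 genes were higher and 2 lower at an adjusted p under 0.05, and all 11 belong to the luminal group or to degradation. Over all TranscriptClusterIDs, 6.49% were called higher and 6.77% lower. Among the 18342 TranscriptClusterIDs brighter than the median, which include every gene of the set except Trib3 and Chac1, a fit of these alone called 10.5% higher and 14.5% lower. The changes ranged from 1.16-fold lower for Dnajc3 to 1.92-fold higher for Herpud1. None of the 4 sensors and none of the 6 measured ATF4-arm genes was called, and at an unadjusted p under 0.05 only Eif2ak3 and Xbp1 among them passed, both higher (14.9% of all TranscriptClusterIDs were higher at this p). The median change was 0.10 for the luminal genes, 0.13 for degradation, 0.06 for the sensors and 0.08 for the ATF4 arm, beside 0.02 for all TranscriptClusterIDs. All fits used limma over the 16 arrays, with Benjamini-Hochberg adjustment over the 36685 TranscriptClusterIDs, and changes are log2 differences ± SE.

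Within the luminal group, 6 of 15 genes were called higher and 2 lower. Hspa5 encodes BiP, the main Hsp70 chaperone of the reticulum. In log2 units and in the order of the rat numbers, Hspa5 read 11.85, 12.00, 11.87 and 12.21 in the CNS rats 1 to 4, 12.02, 12.06, 11.81 and 12.08 in the FNS rats 5 to 8, 12.59, 12.57, 12.47 and 12.79 in the CHS rats 9 to 12 and 12.52, 11.94, 12.42 and 12.32 in the FHS rats 13 to 16. Every CHS rat lay above every rat on normal salt, 3 FHS rats did so too, and rat 14 lay within the normal-salt range. The averaged change was 0.46 ± 0.09 (adjusted p = 0.00363), or 1.38-fold. Hyou1 encodes a large Hsp70-like protein that exchanges the nucleotide of BiP. The CNS rats read 8.37, 8.48, 8.56 and 8.63, the FNS rats 8.46, 8.36, 8.63 and 8.51, the CHS rats 8.93, 9.05, 8.90 and 9.44 and the FHS rats 8.92, 8.69, 8.82 and 8.87. All 8 rats on the high-salt diet exceeded the 8 on normal salt, and the averaged change was 0.45 ± 0.08 (adjusted p = 0.00234).

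Pdia4, a disulfide isomerase of the lumen, had the largest averaged change of the luminal group, 0.61 ± 0.11 (adjusted p = 0.00163), or 1.53-fold. Pdia4 measured 9.07, 9.06, 9.01 and 9.12 in the CNS, 9.14, 9.13, 8.94 and 9.26 in the FNS, 9.83, 9.85, 9.62 and 10.08 in the CHS and 9.94, 9.08, 9.67 and 9.56 in the FHS rats. The CHS rats were all above the rats on normal salt, and rat 14 was the only FHS rat among the normal-salt values. Manf is a secreted factor kept in the lumen that binds BiP. Values were 8.08, 8.31, 7.82 and 8.14 in CNS, 8.21, 8.24, 7.71 and 8.19 in FNS, 8.68, 8.73, 8.72 and 9.03 in CHS and 8.69, 8.20, 8.46 and 8.39 in FHS. Its averaged change was 0.52 ± 0.10 (adjusted p = 0.00367), again with rat 14 as the only high-salt rat below the highest rat on normal salt. Creld2 is a further lumenal protein induced by reticulum stress. In the 4 rats of each group, Creld2 was at 7.15, 7.21, 7.18 and 7.30 (CNS), 7.22, 7.27, 7.07 and 7.37 (FNS), 7.50, 7.63, 7.81 and 7.92 (CHS) and 7.42, 7.32, 7.68 and 7.45 (FHS). Here too the CHS rats stood above all 8 rats on normal salt, and the change was 0.37 ± 0.08 (adjusted p = 0.00510).

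Sdf2l1, part of a chaperone complex with BiP and its DNAJB11 partner, rose by 0.31 ± 0.09 (adjusted p = 0.0321). Its CHS values were 6.96 to 6.99 in 3 rats and 7.51 in rat 12, and its FHS values of 6.50 to 6.79 overlapped the normal-salt values of 6.26 to 6.77. The genes that fell were Canx and Dnajc3. Canx encodes calnexin, the membrane lectin that retains newly made glycoproteins. The CNS rats read 11.66, 11.71, 11.71 and 11.70, the FNS rats 11.69, 11.64, 11.53 and 11.67, the CHS rats 11.45, 11.56, 11.57 and 11.54 and the FHS rats 11.43, 11.31, 11.41 and 11.42. No CHS rat reached the lowest CNS rat and no FHS rat the lowest FNS rat, and the change was -0.20 ± 0.05 (adjusted p = 0.0168). Dnajc3, a co-chaperone of BiP also known as an inhibitor of PERK, changed by -0.22 ± 0.06 (adjusted p = 0.0298). Leaving out rat 1, 7, 13 or 15 ended the call of Sdf2l1 (adjusted p up to 0.0671), and leaving out rat 1, 3, 5, 8, 10 or 11 ended that of Dnajc3 (up to 0.0600).

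The other 7 luminal genes were not called. Hsp90b1 (GRP94), Dnajb9, Dnajb11, Pdia6, P4hb and Calr had averaged changes from -0.07 for P4hb to 0.12 for Dnajb9. Pdia3, the isomerase that works with calnexin and calreticulin, changed by -0.19 ± 0.07 (adjusted p = 0.0675), the nearest to a call. Calr, the soluble lectin calreticulin, was at -0.02 ± 0.07 (adjusted p = 0.856). The plot of diet effects gives all 32 genes by role.

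**Figure D1:**
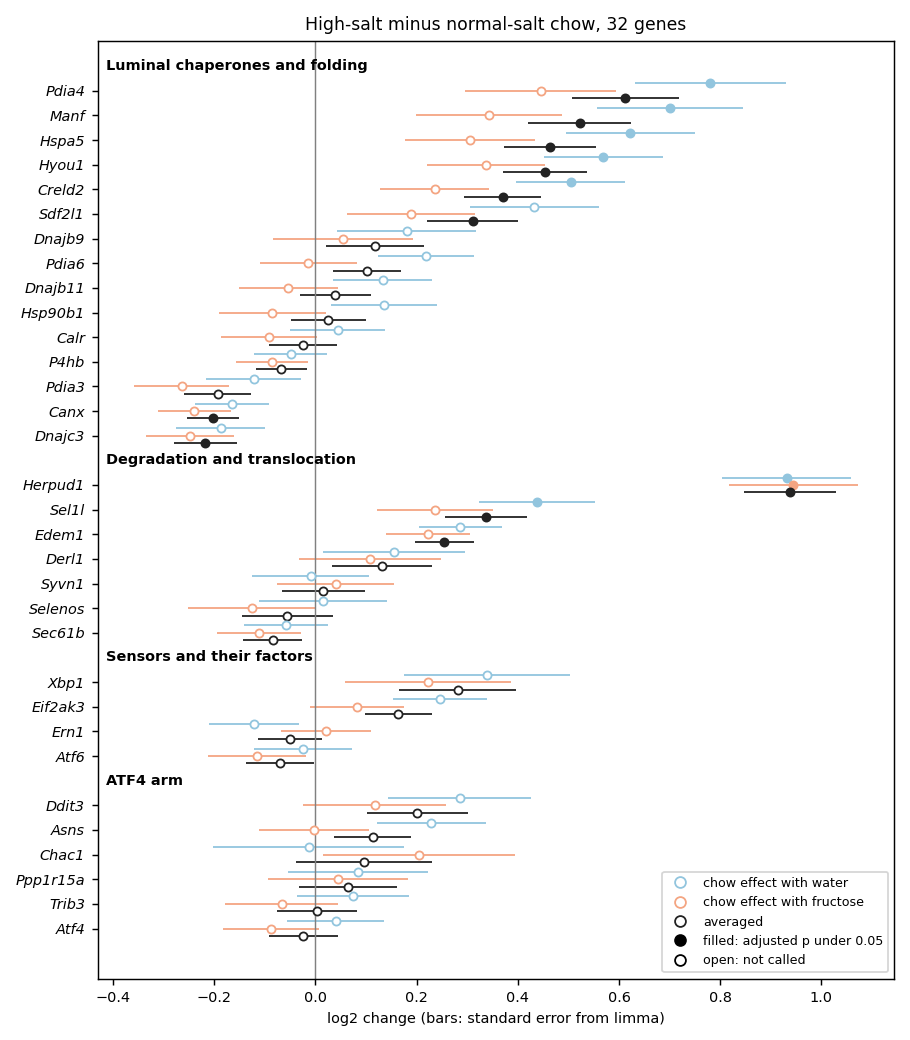
Log2 change (horizontal axis) between the high-salt and the normal-salt diet for 32 genes, grouped by role, with water (blue), with fructose (orange) and averaged (black). Points are limma estimates, bars are SE, and filled points passed an adjusted p under 0.05. The black filled points, 9 to the right of 0 and 2 to the left, all lie in the luminal and degradation groups.

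Of the 7 measured genes of degradation and translocation, 3 were called higher and 0 lower. Herpud1 encodes a membrane protein that organises the ubiquitin ligase through which unfolded proteins leave the reticulum, and it had the largest change of all 32 genes. Herpud1 measured 9.07, 9.39, 9.28 and 9.52 in the CNS, 9.24, 9.62, 9.32 and 9.45 in the FNS, 9.95, 10.31, 10.22 and 10.50 in the CHS and 10.50, 10.31, 10.36 and 10.25 in the FHS rats. The 8 rats on the high-salt diet, rat 14 included, were all above the 8 on normal salt, and the averaged change was 0.94 ± 0.09 (adjusted p = 1.85e-05), or 1.92-fold. Sel1l is the scaffold of the same ligase. Values were 8.95, 8.68, 8.95 and 9.12 in CNS, 9.01, 9.06, 9.07 and 9.01 in FNS, 9.32, 9.40, 9.24 and 9.50 in CHS and 9.43, 8.96, 9.30 and 9.39 in FHS. All high-salt rats except rat 14 exceeded every rat on normal salt, with a change of 0.34 ± 0.08 (adjusted p = 0.0127).

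Edem1 encodes a lectin that directs misfolded glycoproteins to this route. In the 4 rats of each group, Edem1 was at 9.83, 9.67, 9.81 and 9.92 (CNS), 9.84, 9.85, 10.02 and 9.72 (FNS), 10.01, 10.10, 10.13 and 10.13 (CHS) and 10.09, 10.06, 10.08 and 10.08 (FHS). Its change was 0.25 ± 0.06 (adjusted p = 0.0101), and the groups did not overlap within water or within fructose. The ligase itself, Syvn1 (HRD1), changed by 0.02 ± 0.08 (adjusted p = 0.930) and was not called. Derl1, a channel component, Selenos, which recruits the extracting ATPase, and Sec61b, a subunit of the translocon, were not called either, at 0.13, -0.06 and -0.08.

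Among the sensors, Xbp1 and Eif2ak3 had the lowest p. Xbp1 encodes the factor whose mRNA IRE1 splices. The CNS rats read 10.54, 10.31, 10.59 and 10.84, the FNS rats 10.80, 11.002, 10.23 and 10.81, the CHS rats 10.79, 10.86, 10.81 and 11.17 and the FHS rats 10.94, 10.67, 11.17 and 10.96. The groups overlapped, and the averaged change of Xbp1 was 0.28 ± 0.12 (adjusted p = 0.125). Eif2ak3 measured 8.27, 8.17, 8.27 and 8.38 in the CNS, 8.31, 8.34, 8.39 and 8.29 in the FNS, 8.55, 8.61, 8.34 and 8.56 in the CHS and 8.53, 8.19, 8.42 and 8.51 in the FHS rats. Eif2ak3 changed by 0.16 ± 0.07 (adjusted p = 0.115), and the groups overlapped here as well. Atf6 encodes the sensor that is cut under stress. Values were 10.30, 10.21, 10.34 and 10.42 in CNS, 10.39, 10.40, 10.12 and 10.30 in FNS, 10.40, 10.26, 10.21 and 10.30 in CHS and 10.25, 9.97, 10.27 and 10.26 in FHS. The change of Atf6 was -0.07 ± 0.07 (adjusted p = 0.549), and for Ern1 -0.05 ± 0.06 (adjusted p = 0.651).

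In the ATF4 arm, Atf4 itself encodes the transcription factor of this branch. In the 4 rats of each group, Atf4 was at 9.76, 9.73, 9.57 and 9.67 (CNS), 9.80, 9.70, 9.62 and 9.61 (FNS), 9.84, 9.90, 9.55 and 9.61 (CHS) and 9.68, 9.61, 9.61 and 9.48 (FHS). Its values overlapped in all groups, and the averaged change was -0.02 ± 0.07 (adjusted p = 0.859). Ddit3 encodes CHOP, a factor linked to cell death under prolonged stress. The CNS rats read 6.76, 7.12, 6.75 and 6.61, the FNS rats 6.58, 6.67, 6.59 and 6.84, the CHS rats 7.39, 7.12, 6.82 and 7.05 and the FHS rats 7.01, 6.52, 6.89 and 6.73. Rat 9 (CHS) was the highest, the groups overlapped, and the change was 0.20 ± 0.10 (adjusted p = 0.205).

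Asns, asparagine synthetase, was higher in every CHS rat than in every CNS rat. Asns measured 5.90, 5.84, 5.83 and 5.86 in the CNS, 5.76, 5.94, 6.12 and 5.89 in the FNS, 6.20, 5.99, 6.13 and 6.02 in the CHS and 6.08, 6.08, 5.90 and 5.63 in the FHS rats. The FHS and FNS values overlapped, and the averaged change was 0.11 ± 0.08 (adjusted p = 0.365). Chac1 degrades glutathione. Values were 4.81, 4.81, 4.78 and 4.93 in CNS, 4.88, 5.04, 4.67 and 4.82 in FNS, 4.88, 4.56, 4.76 and 5.06 in CHS and 4.64, 5.77, 4.77 and 5.05 in FHS. Rat 14 was the highest of all 16, and the change was 0.10 ± 0.13 (adjusted p = 0.692). Trib3, a pseudokinase that binds ATF4, and Ppp1r15a (GADD34), which restores translation, were at 0.0033 and 0.06. Trib3 and Chac1 were dim on this array, with means under the median TranscriptClusterID.

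**Figure D2:**
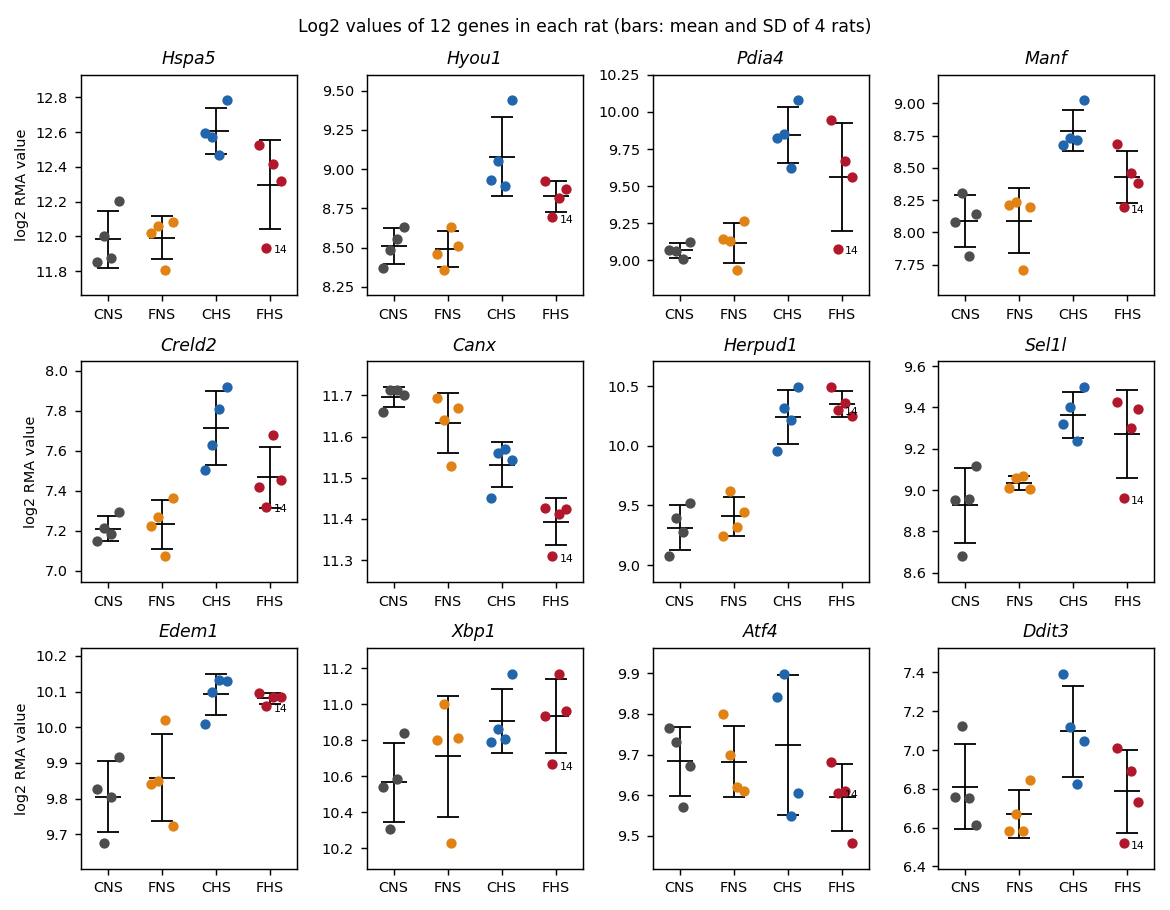
Log2 RMA value (vertical axes) of 12 genes in each rat of the CNS, FNS, CHS and FHS groups. Points are rats, bars are the mean and SD of 4 rats, and rat 14 is marked. For Herpud1 both high-salt groups lie above both normal-salt groups, whereas for Hspa5, Pdia4 and Sel1l rat 14 lies among the normal-salt rats, and for Atf4 the groups overlap.

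The diet effect was next taken with water and with fructose apart. In ΔS(-F), 7 of 32 genes were called higher and 0 lower, against 1.32% and 1.97% of all TranscriptClusterIDs. They were Herpud1, Pdia4, Hyou1, Hspa5, Manf, Creld2 and Sel1l, with changes from 0.44 ± 0.11 for Sel1l and 0.50 ± 0.11 for Creld2 to 0.78 ± 0.15 for Pdia4 and 0.93 ± 0.13 for Herpud1. The 4 CHS rats lay wholly above the 4 CNS rats in 12 genes and wholly below in 2, Canx and Pdia3, against 5.48% and 6.19% of all TranscriptClusterIDs. The 12 comprised 8 luminal genes, the 3 called degradation genes and Asns. In ΔS(+F), 1 gene, Herpud1, was called higher and 0 lower, against 2.73% and 2.63% of all, with a change of 0.94 ± 0.13. The groups lay wholly apart in 3 genes upward (Herpud1, Hyou1 and Edem1) and in 2 downward (Canx and Dnajc3), against 7.16% and 6.12%. Without rat 14, Hspa5, Pdia4, Manf, Creld2, Sel1l, Derl1 and Eif2ak3 also lay wholly above the FNS rats, and Trib3 wholly below them. The share of all TranscriptClusterIDs lying apart without this rat was not computed. Groups of 3 and 4 rats lie wholly apart more readily than 2 groups of 4, so these added genes are not read as a result.

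Side by side, the changes with water and with fructose were 0.62 ± 0.13 and 0.31 ± 0.13 for Hspa5, 0.78 ± 0.15 and 0.44 ± 0.15 for Pdia4, and 0.70 ± 0.14 and 0.34 ± 0.14 for Manf. These comparisons share no rats. The difference between them is the interaction of diet and fructose, and it was called for 0 of 32 genes and for 0.0% of all TranscriptClusterIDs. At an unadjusted p under 0.05 it passed for 0 of the 32, against 4.01% of all upward and 2.09% downward. The interaction of Hspa5 was -0.32 (95% interval -0.70 to 0.07, adjusted p = 0.831), that of Pdia4 -0.34 (-0.79 to 0.11, adjusted p = 0.843) and that of Herpud1 0.01 (-0.37 to 0.40, adjusted p = 0.994). The intervals of Hspa5 and Pdia4 reach from more than the whole ΔS(-F) change to a small difference of the other sign, so a smaller diet effect under fructose was neither shown nor shown to be absent. Without rat 14, Pdia4 was also called in ΔS(+F), at 0.61 (adjusted p = 0.0158), and Hspa5 was at 0.43 (adjusted p = 0.0544), and averaged over water and fructose 11 genes were called higher, with Derl1 and Eif2ak3 added, while over all TranscriptClusterIDs the calls upward went from 2381 to 2251. In ΔS(-F) the count fell to 3 without rat 1, rat 3 or rat 12, as the calls upward over all TranscriptClusterIDs fell from 484 to 224, 249 and 260. Sel1l was lost without any of 14 rats (adjusted p up to 0.132).

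Fructose was then compared with water within each diet. In ΔF(HS), 0 of 32 genes were called in either direction, against 0.00273% of all TranscriptClusterIDs higher (1) and 0.0% lower. All 15 luminal genes had a lower mean in FHS than in CHS, and at an unadjusted p under 0.05, 10 of the 32 genes passed, all lower, against 3.57% of all TranscriptClusterIDs lower and 6.06% higher (6.46% and 5.91% in a fit of the brighter TranscriptClusterIDs alone). These were 8 luminal genes (Sdf2l1, Pdia6, Manf, Hspa5, Dnajc3, Creld2, Hsp90b1 and Hyou1), Selenos and Ddit3. ΔF(HS) and ΔS(-F) share the CHS rats, so a high or low CHS rat moves both, in opposite directions.

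Sdf2l1 had the lowest p, with a difference of -0.43 ± 0.13 (adjusted p = 0.314). In the 4 rats of each group, Sdf2l1 was at 6.52, 6.66, 6.77 and 6.75 (CNS), 6.59, 6.53, 6.26 and 6.56 (FNS), 6.99, 6.97, 6.96 and 7.51 (CHS) and 6.79, 6.70, 6.71 and 6.50 (FHS). Every FHS rat lay below every CHS rat, and without rat 14 the difference was -0.44 (adjusted p = 0.460). For Pdia6, a disulfide isomerase that also acts on IRE1, the difference was -0.29 ± 0.10 (adjusted p = 0.367). The CNS rats read 9.79, 9.77, 9.86 and 9.82, the FNS rats 9.86, 9.67, 9.70 and 9.77, the CHS rats 10.01, 9.99, 10.10 and 10.02 and the FHS rats 9.92, 9.46, 9.85 and 9.72. For Selenos it was -0.39 ± 0.13 (adjusted p = 0.367), with FHS values of 6.48 to 6.89 and CHS values of 6.91 to 7.27. These genes and Canx were the 4 whose FHS and CHS rats did not overlap, against 2.13% of all TranscriptClusterIDs lower and 2.99% higher. Hspa5 was -0.31 ± 0.13 (adjusted p = 0.477) and Manf -0.36 ± 0.14 (adjusted p = 0.460), and both sets of rats overlapped, as the values above show. Herpud1 was at 0.11 ± 0.13 (adjusted p = 0.826).

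The 10 genes at an unadjusted p were 4 without rat 14 and 3 without rat 12. Over all TranscriptClusterIDs, those lower at this p went from 1308 to 1060 without rat 14 and to 1458 without rat 12. Rat 12 was the highest CHS rat in 18 of the 32 genes and in 11 of the 15 luminal ones, against 25.6% of all TranscriptClusterIDs. The 5 measured markers of dividing cells were also low in FHS. Their summed linear values were 1155 to 1558 in CHS and 675 to 818 in FHS. All 5 were lower at an unadjusted p (3.57% of all TranscriptClusterIDs), and their part in the result was not tested.

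In ΔF(NS), 0 of 32 genes were called, as of all TranscriptClusterIDs (0.0%), and 0 passed an unadjusted p, against 1.82% higher and 2.33% lower of all. The changes lay between -0.25 for Selenos and 0.14 for Xbp1, and the groups did not overlap for Dnajc3 alone, which was lower in FNS (1.62% of all lower and 1.5% higher). Averaged over both diets, fructose gave 0 called genes of the set, against 0.00273% of all (1 higher). At an unadjusted p, 5 genes passed, all lower (Selenos, Sdf2l1, Dnajc3, Pdia6 and Ddit3), against 2.91% of all lower and 4.53% higher. Without rat 14, 4 genes of the set passed, all lower, while those lower over all TranscriptClusterIDs went from 1066 to 1107.

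**Figure D3:**
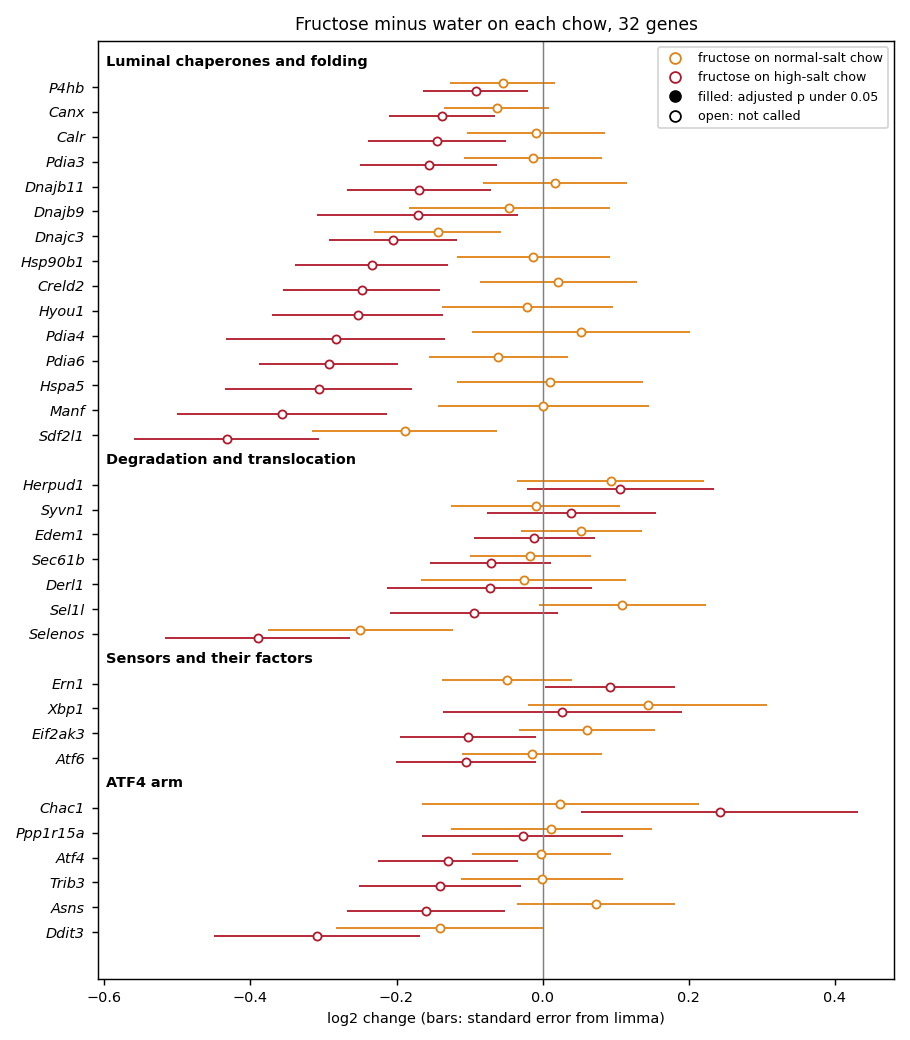
Log2 change (horizontal axis) with fructose on the normal-salt (orange) and on the high-salt diet (red) for 32 genes grouped by role. Points are limma estimates and bars are SE. No point is filled, since none passed an adjusted p under 0.05, and all 15 luminal genes lie left of 0 on the high-salt diet.

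The luminal genes were then set against the ATF4 arm in each rat. For each rat, the log2 values of the 15 luminal and of the 6 ATF4-arm genes were averaged after subtraction of the CNS mean of each gene. The luminal mean was -0.05 to 0.06 in the CNS rats and -0.15 to 0.03 in the FNS rats. It was 0.19, 0.23, 0.20 and 0.39 in the CHS rats 9 to 12, above all 8 rats on normal salt. In the FHS rats it was 0.13, 0.10 and 0.06 in rats 13, 15 and 16 and -0.21 in rat 14. All CHS rats and the FHS rats 13, 15 and 16 lay above every rat on normal salt, the nearest being rat 16 at 0.0596 against rat 4 (CNS) at 0.0585, and only rat 14 lay among or below them.

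The ATF4-arm mean was -0.01 to 0.02 in CNS, -0.05 to 0.04 in FNS, 0.0040 to 0.21 in CHS and -0.10 to 0.25 in FHS (-0.10 to -0.0050 without rat 14), and the groups overlapped. In rat 14 the ATF4-arm mean was the highest of all 16 and the luminal mean the lowest. Trib3, Chac1, Asns and Ppp1r15a were dimmer than every luminal gene, and the array of rat 14 had the highest median and lowest SD. The part of the array in the opposite position of these means was not tested. The luminal mean minus the ATF4-arm mean was 0.14 ± 0.11 (SD, n = 4) in CHS and -0.0081 ± 0.30 in FHS. As medians over genes, the luminal group changed by 0.18 in ΔS(-F) and -0.01 in ΔS(+F), and the ATF4 arm by 0.08 and 0.02, beside 0.0042 and 0.04 for all TranscriptClusterIDs. In ΔF(HS) the medians were -0.23 for luminal genes, -0.14 for the ATF4 arm and 0.03 for all. The luminal minus ATF4-arm difference in ΔF(HS) was -0.14, and without rat 14 it was 0.0035, so its sign rested on this rat. No test was made of these averages.

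**Figure D4:**
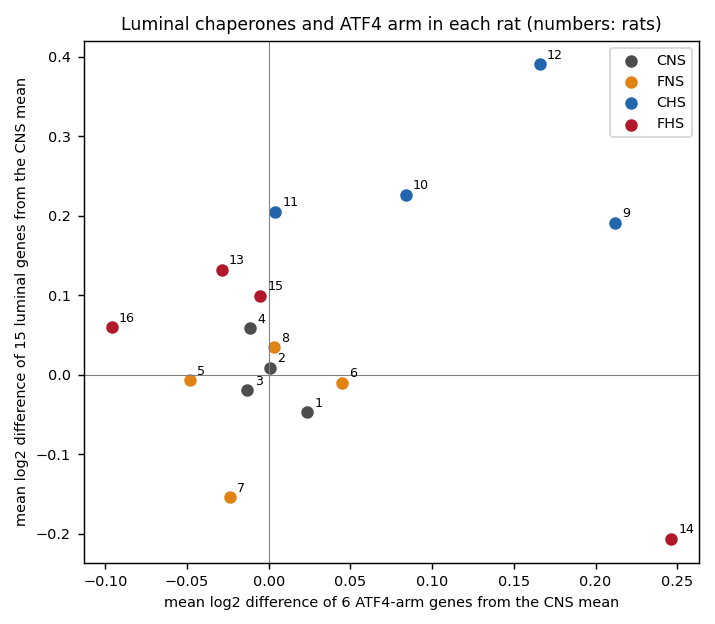
Mean log2 difference from the CNS mean of 15 luminal genes (vertical axis) against that of 6 ATF4-arm genes (horizontal axis) in each of the 16 rats, coloured by group and numbered by rat. The 4 CHS rats lie highest, and rat 14 lies alone at the lower right.

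Further genes of the same pathways were counted for the diet effect averaged over water and fructose, to be read beside the 6.49% of all TranscriptClusterIDs called higher and the 6.77% called lower (10.5% and 14.5% of the brighter ones). Of 21 other folding enzymes of the reticulum, 3 were called higher and 1 lower, with a median of 0.15 beside 0.02 for all TranscriptClusterIDs. Ganab and Prkcsh, the catalytic and the regulatory subunit of glucosidase II, which trims glycans for the calnexin cycle, changed by 0.42 ± 0.06 (adjusted p = 0.000655) and 0.43 ± 0.08 (adjusted p = 0.00182). Ero1a, which reoxidises disulfide isomerases, changed by -0.53 ± 0.08 (adjusted p = 0.000813). Of 26 other genes of degradation and translocation, 1 was called higher (6.49% of all), Spcs1 of the signal peptidase at 0.24 ± 0.06 (adjusted p = 0.0195), and 2 lower (6.77% of all), Sec63 of the translocon at -0.25 ± 0.05 (adjusted p = 0.00657) and Ubxn4 at -0.22 ± 0.06 (adjusted p = 0.0259).

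Of 14 other sensors and regulators, 3 were called higher and 2 lower. Creb3l1 encodes a membrane-bound factor related to ATF6, known from collagen-secreting cells, and it had the largest change among the further genes named, -1.23 ± 0.12 (adjusted p = 1.8e-05). Ppp1r15b, the constitutive partner of the phosphatase that reverses PERK, changed by 0.56 ± 0.09 (adjusted p = 0.00116), and Mbtps1, the first protease to cut ATF6, by 0.27 ± 0.06 (adjusted p = 0.00719). Of 23 other ATF4 targets, 2 were called higher and 1 lower, near the shares of 6.49% and 6.77% of all. They were Ddit4, an inhibitor of mTORC1, at 0.77 ± 0.12 (adjusted p = 0.00109), Cebpb at 0.38 ± 0.10 (adjusted p = 0.0179) and Psph, of serine synthesis, at -0.61 ± 0.14 (adjusted p = 0.00988). Of 12 aminoacyl-tRNA synthetases, a class with many ATF4 targets, 0 were called higher and 1 lower, Wars1 at -0.38 ± 0.09 (adjusted p = 0.0109).

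Chaperones outside the reticulum were counted in the same way, beside the same shares of all TranscriptClusterIDs. Of 14 cytosolic heat shock proteins, 3 were called higher and 2 lower, with a median of 0.01. The higher ones were Hsph1 at 0.48 ± 0.09 (adjusted p = 0.00323), Dnajb1 at 0.46 ± 0.09 (adjusted p = 0.00360) and Hspa8 at 0.27 ± 0.05 (adjusted p = 0.00402). Of 8 mitochondrial chaperones, 1 was called higher, Trap1, and 1 lower, Hspd1, at 0.21 and -0.22. In ΔF(HS), 0 genes of these 7 lists were called, and among the cytosolic heat shock proteins 5 of 14 were lower at an unadjusted p, against 3.57% of all TranscriptClusterIDs (6.46% of the brighter ones), Hsph1 among them at -0.44 ± 0.13 (adjusted p = 0.321). Lower genes at this p were not confined to that list. Grpel1 (-0.26), Hspd1 (-0.21) and Lonp1 (-0.19) of the 8 mitochondrial chaperones passed it too. So did Aars1, Ubxn4, Txndc12, Cebpg and Creb3l1 of the other lists, whereas Creb3l3 passed it upward. Psph was at -0.64 ± 0.20 (adjusted p = 0.336), Fkbp2, a prolyl isomerase of the lumen, at -0.51 ± 0.17 (adjusted p = 0.367), and Creb3l3, a liver-enriched relative of ATF6, at 0.50 ± 0.16 (adjusted p = 0.353).

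Markers of plasma and B cells, which hold much reticulum, were examined beside the diet effect. Their calls are to be read beside the 6.49% of all TranscriptClusterIDs called higher and the 6.77% called lower in the averaged effect. The summed linear values of the 6 measured markers were 198 to 208 in CNS, 187 to 254 in FNS, 234 to 274 in CHS and 235 to 238 in FHS, so that CHS stood above CNS and FHS overlapped FNS. All 6 had averaged changes above 0, from 0.06 to 0.65, and 1 was called, Derl3, itself a gene of reticulum degradation, while Jchain and Mzb1 were not called. For the 5 collecting duct markers the sums were 3542 to 4300 in CNS, 3221 to 3864 in FNS, 4088 to 4664 in CHS and 4167 to 4940 in FHS, but the genes went both ways in the averaged effect, from -0.43 to 0.86, with 2 called higher and 1 lower.

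Some markers of further cell types also differed between the diets. Of all TranscriptClusterIDs, 1.97% were called lower in ΔS(-F) and 2.63% in ΔS(+F). In the averaged effect 6.49% were called higher and 6.77% lower (10.5% and 14.5% of the brighter ones). The few calls below are to be read beside these shares. The summed values of the 3 measured endothelial markers were 2588 to 3135 in CNS and 1917 to 2339 in CHS, without overlap, and 1985 to 2642 in FNS and 2033 to 2610 in FHS. All 3 were below 0 in ΔS(-F) with 1 called lower, and 0 were called in the averaged effect. The 3 podocyte markers were all below 0 in the averaged effect, from -0.41 to -0.11, with 1 called lower. Their sums were 1486 to 1791 in CNS and 1274 to 1502 in CHS, and 1495 to 1665 in FNS and 1347 to 1716 in FHS, with overlap in both pairs. For the 5 markers of dividing cells the sums were 1053 to 1649 in FNS and 675 to 818 in FHS, without overlap, and 2 were called lower in ΔS(+F) and in the averaged effect. With water, their sums of 1329 to 1697 in CNS and 1155 to 1558 in CHS overlapped. Among fibroblast and smooth muscle, macrophage and proximal tubule S3 markers, 1 of 5, 1 of 6 and 0 of 3 were called higher in the averaged effect and 1 of each list lower. The part of these cells in the diet effect was not tested.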

How the data were processed

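Kidney cortex RNA of 16 rats was hybridised to Affymetrix RaGene 2.0 ST arrays, 1 per rat. The authors converted the images with Affymetrix Expression Console by robust multi-array average (RMA), with quartile named for normalization and median polish for summarization, and deposited log2 values per TranscriptClusterID. RMA compresses differences of dim probe sets, and no detection limit accompanies the values, so the number of arrays and the spread between rats set the precision. Every rat was grouped by its label, and 0 columns were left unmapped.

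Symbols came from the platform's probe annotation: 18511 TranscriptClusterIDs have 1 symbol, 575 several and 17599 none. Where a gene of another list had several, that with the highest mean was used. Rows paired with several symbols named no gene. limma 3.58.1 in R 4.3.3 fitted a mean per group to all 36685 TranscriptClusterIDs over 16 arrays, with empirical Bayes moderation, and the contrasts were called at a Benjamini-Hochberg adjusted p under 0.05, two-sided. The script was tested on simulated data with changes added to the FHS rats. In ΔF(HS) it called 18 of 100 rows changed by a log2 of 0.5 and 72 of 100 changed by 1, with 7 false calls. A count of 0 called genes in ΔF(HS) therefore does not show that changes of a log2 of 1 or less are absent. The simulation held many changed rows and independent noise, whereas the real ΔF(HS) called 1 TranscriptClusterID, so recovery in these data could be lower. Every p treats rats as independent, although they shared cages in pairs. The members and lists were chosen with earlier results of these data known.

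All genes of the set are named. Hspa5, Xbp1, Atf4, Ddit3 and, in each role group, the 3 genes (5 luminal) with the lowest moderated F test p were given rat by rat, and of each other list the 3 with the lowest p. Canx, Sdf2l1 and Pdia6 were given rat by rat after their values were seen. Alternatives were quantile normalization, centring of arrays, a filter on dim rows, an intensity trend, rows with 1 symbol, 8 arrays alone, the methods' ANOVA on ΔF, and each rat left out. Averaging the rows of a symbol could change no gene of the set, since each had 1. Promoters were read from a RefSeq table (GRCr8). Marker sums are of linear values.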

Additional observations from a re-analysis of the deposited data

Results flagged for a closer look

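In groups of 4 rats, a highest or lowest rat was set apart when its gap to the nearest rat took up more of the group's range than Dixon's 95% critical value allows. Of 128 groups over the 32 genes, 10 were flagged, where chance flags about 1 in 20, and 5 of the values came from rat 7 or rat 14. Rat 12 was high among the CHS rats in Sdf2l1 (7.51) and Manf (9.03). Rat 7 was apart in the FNS group, low in Pdia3 (11.5) and Manf (7.71) and high in Syvn1 (7.61). Rat 14 was low in the FHS group in Canx (11.3) and Atf6 (9.97). The others were rat 3 in CNS, high in P4hb (11.3), rat 6 in FNS, low in Ern1 (7.14), and rat 2 in CNS, low in Ppp1r15a (6.01). No interaction of diet and fructose was called by limma, so no difference between the diets was flagged.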

How the results depend on the processing

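No paired analysis was possible because the labels number the rats 1 to 16 and no number is shared between groups. Counts of 0 called genes for fructose in ΔF(NS), ΔF(HS), their average and the interaction stayed 0 under every alternative run. With each rat left out in turn, the averaged diet effect gave 8 to 11 genes higher and 1 to 3 lower, ΔS(-F) 3 to 7 higher, and ΔS(+F) 1 to 2 higher and 0 to 1 lower. Genes lower at an unadjusted p in ΔF(HS) numbered 3 to 10. The luminal minus ATF4-arm difference ranged from -0.20 to 0.0035 in ΔF(HS), from 0.11 to 0.19 in ΔS(-F), from -0.036 to 0.17 in ΔS(+F) and from 0.050 to 0.15 averaged. Signs turned, with values near 0, for Atf4 (-0.053 to 0.0055) and Chac1 (-0.022 to 0.17) averaged, and in ΔF(HS) for Sel1l (-0.15 to 0.0096), Edem1 (-0.040 to 0.0012) and Xbp1 (-0.051 to 0.12). In ΔS(-F), Creld2 lost its call without rat 1, 3, 11 or 12, Hspa5 without rat 1, 3 or 12, Manf without rat 3 or 12, and Hyou1 without rat 1. Of the further genes, Hspd1 lost its call without any of 10 rats, Ubxn4 without any of 5 and Trap1 without rat 6 or 13.

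Quantile normalization gave 2 genes higher in ΔS(+F), 1 lower averaged, 6 lower at an unadjusted p in ΔF(HS), luminal minus ATF4-arm differences of -0.062 in ΔF(HS) and 0.12 in ΔS(+F), and turned Atf4 averaged to 0.018 and Edem1 in ΔF(HS) to 0.034. Centring of arrays, leaving out dim rows and an intensity trend each gave 1 gene lower in ΔS(+F), and centring turned Xbp1 in ΔF(HS) to -0.045. The 8 arrays alone gave 4 genes higher in ΔS(-F) and 4 lower at an unadjusted p in ΔF(HS), and the methods' ANOVA 5. The cause of these shifts was not tested, except that the 8 arrays leave fewer samples.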
